A study of Mus musculus with 8 samples.

Results

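Hearts of Set7 knockout mice were compared with hearts of wild-type mice after both had received isoproterenol. Of the 8 libraries of the series, 4 enter this comparison by their labels: 2 labelled Set7KO and isoproterenol, and 2 labelled WT and isoproterenol. Isoproterenol (60 mg/kg, subcutaneous) was given on 14 consecutive days in all 4, so neither group is untreated. The knockout (Set7KO) is global, obtained by crossing heterozygotes. The remaining 4 libraries, 2 WT and 2 Set7KO from saline-treated mice, entered the same statistical model and are given as the reference for the untreated heart. The labels give neither strain, age nor sex, and do not say that each library is a separate mouse. What the p-values weigh is therefore the variation among these libraries, which may be technical in part. The libraries held 40669217 and 31325422 counts (WT) and 34294082 and 28078942 counts (Set7KO), and from 27847069 to 51705705 with saline. Within each isoproterenol group the pair differed by more than counting noise. The titles also carry a letter whose meaning the labels do not give. Both Set7KO isoproterenol libraries have A and both WT isoproterenol libraries have D, while the saline libraries have C, except 1 Set7KO library with B. Whatever the letter stands for cannot be told apart from genotype among the isoproterenol libraries.

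Set7, the product of Setd7, is a lysine methyltransferase that monomethylates histone H3 and also methylates transcription factors and other proteins. Isoproterenol is a synthetic catecholamine that stimulates beta-adrenergic receptors. Sustained exposure of the mouse heart is used to provoke cardiomyocyte hypertrophy, inflammation and interstitial fibrosis, in which resident fibroblasts deposit collagen. The comparison asks how the transcript levels of the isoproterenol-treated heart differ when Set7 is missing.

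Setd7 itself was the 1 gene that differed past the threshold. The gene occupies bases 51515319 to 51560879 of chromosome 3 on the minus strand (GRCm38). The WT libraries held 58.1 and 72.6 CPM, counts scaled to TMM-normalised library size. It was 3.79 and 3.92 CPM in the Set7KO libraries. The groups lay far apart, at 65.4 ± 10.2 CPM (SD, n = 2) and 3.85 ± 0.0851 CPM (SD, n = 2). Setd7 fell by 4.08 ± 0.25 (SE) on the log2 scale in Set7KO, or 16.9-fold, with an adjusted p of 0.00256 in edgeR's quasi-likelihood test with Benjamini-Hochberg adjustment. The adjusted p exceeded the threshold of 0.05 when either Set7KO isoproterenol library was left out. It was then 0.150 without Set7KO 1 and 0.0510 without Set7KO 2, at log2 differences of -4.02 and -4.10. The saline libraries held 43.7 and 43.0 CPM (WT) and 4.45 and 5.70 CPM (Set7KO), so both isoproterenol WT libraries lay above both saline WT libraries. Counts on Setd7 remained in the knockout, 126 and 107 of them after isoproterenol. The sources used here do not give the deleted part of the gene. Of 11 tested genes within 1 Mb, Setd7 alone passed. The neighbour Rab33b, a small GTPase gene, was at 6.51 and 5.48 CPM in WT and 3.73 and 3.37 CPM in Set7KO, which did not pass. Naa15, which encodes a subunit of the N-terminal acetyltransferase complex, was at 9.21 and 9.93 CPM against 3.31 and 3.40 CPM, a log2 difference of -1.51 that was -0.14 with the correction described below.

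Across all genes, Setd7 made up the calls: 1 of 17636 genes tested, or 0.00567%, and no gene passed on the higher side. At an unadjusted p under 0.05, 1274 genes were higher in Set7KO (7.22%) and 2231 were lower (12.7%), 19.9% in all. Limma-voom also called 1 gene, whereas DESeq2 called 74 higher (0.42%) and 223 lower (1.26%), 1.68% in all. A fit on the 4 isoproterenol libraries alone called 197 higher (1.16%) and 1106 lower (6.52%) of 16974 genes tested, 7.68% in all, of which DESeq2 had called 283. The values of the 2 genotypes did not overlap for 5612 genes on the higher side (31.8%) and 6408 on the lower side (36.3%). With the correction for GC content described next, the numbers were 5287 (30%) and 3534 (20%).

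The genotype difference followed the GC content of the genes. Genes were placed in 5 equal classes of GC content. In the lowest class (up to 45.2%), the median log2 difference was -0.97, and 43.7% of them were lower at an unadjusted p under 0.05. In the highest class (from 55.7%), the median was 0.47, and 0.227% were lower and 19.1% higher. The trend was also measured per library, from the deviation of each gene from its mean over the 8 libraries. These values are therefore relative to the other libraries. The highest class stood -1.10 and -0.80 (log2) against the lowest in the WT isoproterenol libraries, and 0.20 and 0.66 in the Set7KO isoproterenol libraries. In saline the values were 0.58 and 0.88 (WT) and 0.37 and -0.93 (Set7KO), so the second Set7KO saline library resembled the WT isoproterenol pair. Gene lists and most of the genes described are therefore also given with offsets, corrections per library that remove a smooth trend with GC content and transcript length. With them the classes had medians from 0.01 to 0.07, Setd7 fell by 3.46 on the log2 scale (adjusted p of 0.00632, edgeR) and was again the 1 gene called. At an unadjusted p under 0.05, 993 genes were then higher (5.63%) and 443 lower (2.51%), 8.14% in all. The GC trend moves with genotype among the isoproterenol libraries, so a technical and a biological origin of a GC-dependent difference cannot be told apart here.

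**Figure D1:**
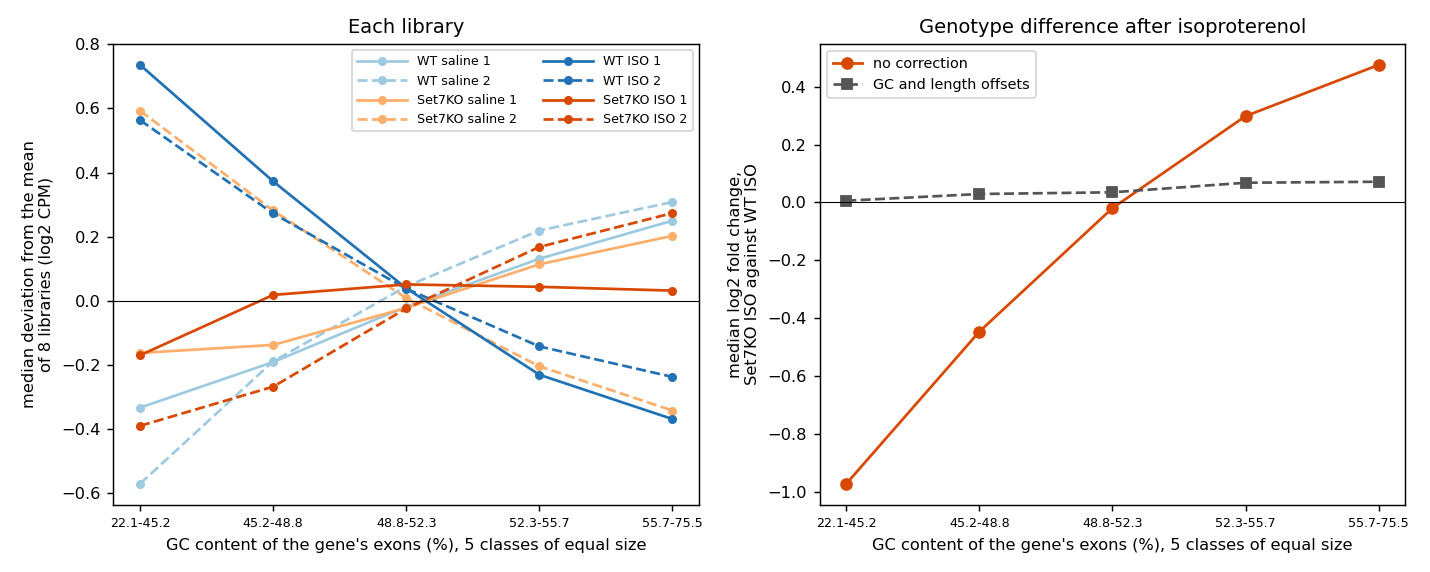
Left, the median deviation of genes from their mean over the 8 libraries (log2 CPM) in 5 classes of GC content of equal size, 1 line per library. Right, the median log2 fold change between Set7KO and WT after isoproterenol in the same classes, which runs from -0.97 to 0.47 without correction and from 0.01 to 0.07 with GC and length offsets.

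The 12 genes named on the higher side had log2 differences from 0.89 to 1.73, and all 12 had an adjusted p of 0.229 (edgeR), so none passed. All 12 passed in DESeq2 and in the fit on the 4 isoproterenol libraries, and none passed in that fit with offsets. The named genes of both directions were chosen by their p and their sign with offsets in these same counts. Passing in other fits of these counts, with or without offsets, is therefore no independent support. Ramp1, a partner protein that makes the calcitonin receptor-like receptor respond to CGRP, was at 14.6 and 15.1 CPM in WT and at 39.7 and 45.5 CPM in Set7KO. Its saline levels were 17.9 and 24 CPM (WT) and 19.4 and 14.9 CPM (Set7KO). Both Set7KO isoproterenol libraries thus lay above the other 6 libraries. The log2 difference was 1.52 ± 0.25 (SE), and 1.22 with offsets. Eno3, the muscle enolase, and Map1lc3a, an autophagosome protein gene, shared this arrangement. Eno3 was at 2952 and 2896 CPM in WT against 4940 and 5870 CPM in Set7KO, a log2 difference of 0.89 ± 0.20 (SE) that was 0.52 with offsets. Map1lc3a was at 800 and 867 CPM in WT and 1517 and 1796 CPM in Set7KO, a difference of 0.99 that was 0.42 with offsets.

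For 8 of the 12 genes it was the WT isoproterenol pair that stood apart, below all 6 other libraries. Fbp2, the muscle fructose-bisphosphatase, was at 10.8 and 10.0 CPM in WT and 21.0 and 21.4 CPM in Set7KO. With saline it was at 42.6 and 54.8 CPM (WT) and 32.7 and 34.3 CPM (Set7KO). The Set7KO isoproterenol hearts therefore lay between the WT isoproterenol hearts and all saline hearts. The log2 difference was 1.03 ± 0.22 (SE), and 0.95 with offsets. Car4, a membrane-bound carbonic anhydrase, was at 12.34 and 12.01 CPM in WT, 22.3 and 25.7 CPM in Set7KO, and 26.4 to 29.4 CPM in all saline libraries. Selplg, the selectin ligand PSGL-1 of leukocytes, was at 2.88 and 2.31 CPM in WT and 5.69 and 8.23 CPM in Set7KO. Bcam, a laminin-binding adhesion molecule, and Cyp4b1, a cytochrome P450, were at 340 and 337 CPM and at 22.5 and 23.9 CPM in WT. In Set7KO they were at 604 and 668 CPM and at 52.1 and 43.5 CPM. Snai3, Fdx1l, Ppp1r3f and the immunoglobulin kappa constant gene Igkc complete the 12. With offsets the 12 log2 differences ran from 0.42 to 1.75, and 10 of the 12 stayed at an unadjusted p under 0.05.

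The other 11 genes named on the lower side beside Setd7 again had an adjusted p of 0.229 (edgeR). All 12 on this side, Setd7 included, passed in DESeq2 and in the fit on the 4 isoproterenol libraries, and Setd7 alone of them passed in that fit with offsets. Cdc14b, a dual-specificity phosphatase of the cell cycle, was at 10.1 CPM in both WT libraries and 2.32 and 1.57 CPM in Set7KO. Its saline levels ran from 2.42 to 6.42 CPM, so WT with isoproterenol was the high group. Its log2 difference was -2.37 ± 0.41 (SE), and -1.70 with offsets. Cenpj, a centriole assembly gene, was at 3.27 and 3.87 CPM in WT and 0.813 and 0.988 CPM in Set7KO. Its saline levels were 1.31 and 0.928 CPM (WT) and 2.41 and 2.47 CPM (Set7KO), so WT with isoproterenol was again the high group. The log2 difference of Cenpj was -1.98, and -1.23 with offsets.

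Mapt departed from that arrangement. It encodes the microtubule-binding protein tau and was at 76.7 and 108 CPM in WT and 31.7 and 45.7 CPM in Set7KO. Its saline levels were 101 and 111 CPM (WT) and 85.8 and 89.5 CPM (Set7KO), so the Set7KO isoproterenol libraries were the lowest 2 of the 8. The log2 difference was -1.25 ± 0.26 (SE), and -1.41 with offsets. Besides Setd7 and Mapt, all 10 genes named on the lower side had the opposite sign with saline. The group also held Krcc1, Kctd12b and 5 genes of the interferon response described below. With offsets the 12 lower-side differences ran from -3.46 to -0.44, and Kctd12b and Gbp9 no longer had an unadjusted p under 0.05.

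**Figure D2:**
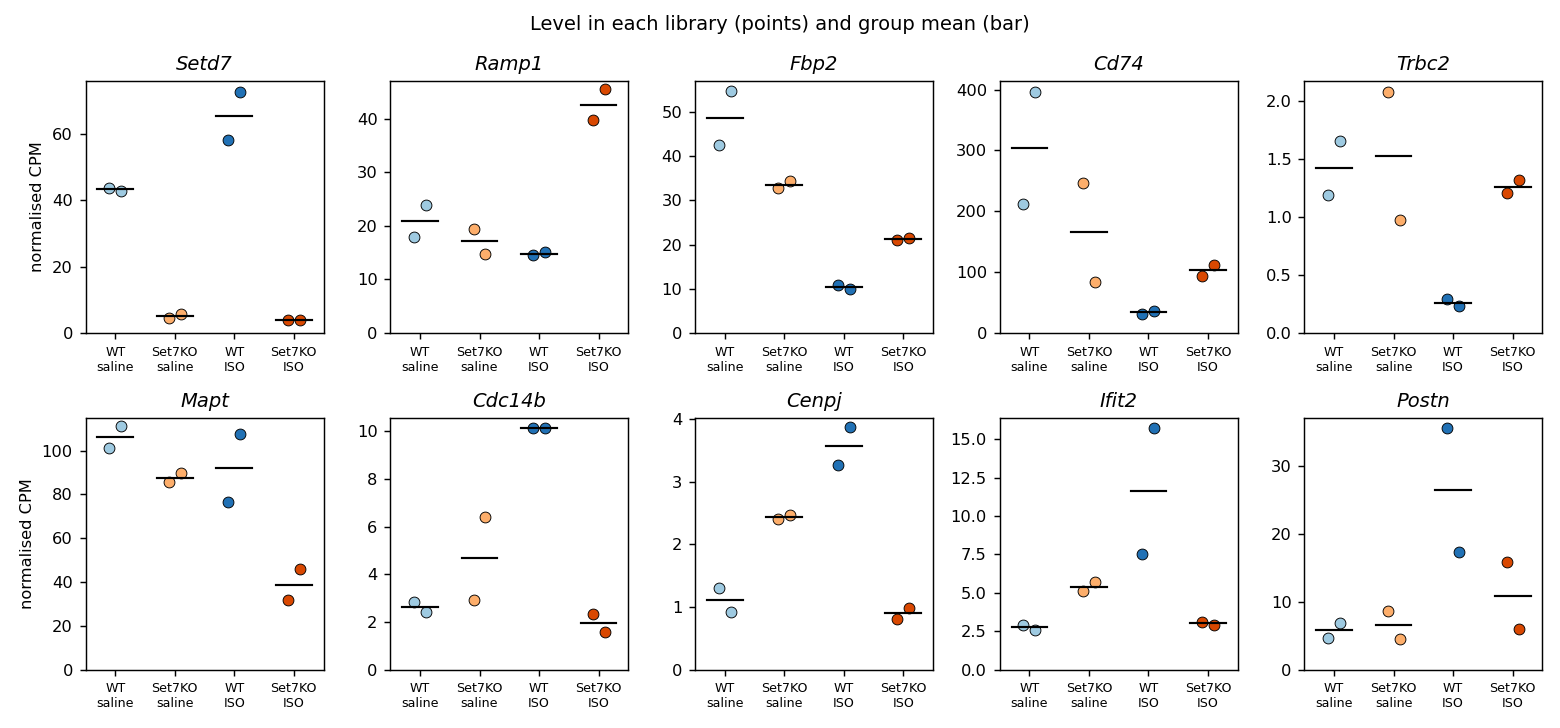
Normalised CPM of 10 genes in each of the 8 libraries (points) with the group mean (bar), 4 groups of 2 libraries, each axis starting at 0. Setd7 is low in all 4 Set7KO libraries, Ramp1 is highest and Mapt lowest in the Set7KO isoproterenol libraries, and Cdc14b and Ifit2 are highest in the WT isoproterenol libraries.

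Transcripts of B and T lymphocytes had the same median difference with and without the correction. These are cells of adaptive immunity that are sparse in the mouse heart. Of 17 markers tested, 15 did not overlap on the higher side (31.8% of all genes did so). At an unadjusted p under 0.05, 13 of 17 were higher in Set7KO and none lower, beside 7.22% and 12.7% of all genes. The median log2 difference was 1.75 without and 1.75 with offsets, beside -0.05 and 0.05 over all genes. Many of these markers had few counts. Trbc2 had 13 and 8 in WT and 40 and 36 in Set7KO, and Cd8b1 had 3 and 0 against 31 and 12. With a filter of 1 CPM in 2 libraries, 11 of the markers were tested and 9 were higher at that level, with a median of 1.71. Over all genes it was 3220 of 14737 in either direction. With offsets 14 of 17 were higher and none lower at an unadjusted p under 0.05 (5.63% and 2.51% of all genes). No member passed after adjustment. In bulk tissue, fewer cells of a type and less RNA per cell cannot be told apart.

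The T cell receptor constant gene Trbc2 was at 0.295 and 0.231 CPM in WT and 1.205 and 1.317 CPM in Set7KO, a log2 difference of 2.24 ± 0.50 (SE). Its saline range of 0.977 to 2.08 CPM covered the Set7KO isoproterenol values and lay above both WT values. Cd79a, a signalling chain of the B cell receptor, was at 0.477 and 0.346 CPM in WT and 2.02 and 1.21 CPM in Set7KO. Cd79b, its partner chain, was at 0.885 and 0.318 CPM and at 2.14 and 2.01 CPM. Ighm, the IgM heavy chain, was at 6.56 and 5.86 CPM in WT and 14.5 and 12.6 CPM in Set7KO. Igkc was at 2.84 and 2.25 CPM against 11.96 and 4.94 CPM. For Cd79a, Ighm and Igkc all 4 saline libraries lay above both WT isoproterenol libraries, as for Trbc2. The T cell kinase Lck was at 0.499 and 0.231 CPM in WT and 1.2 and 1.13 CPM in Set7KO. Cd4, which macrophages can also express, was the exception, at 1.82 and 1.36 CPM in WT and 1.11 and 1.72 CPM in Set7KO. Ms4a1, a defining B cell marker, had 0 counts in all 4 isoproterenol libraries. The summed level of the whole marker list was 12.1 to 16.2 CPM in WT, 30.8 to 42.0 CPM in Set7KO and 32.3 to 56.3 CPM with saline. Leaving out 1 library, the list median ran from 1.31 (without WT 2) to 2.21 (without WT 1), with 1.62 without Set7KO 1.

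Genes of antigen presentation by MHC class II differed in the same direction. H2-Eb1, H2-Ab1 and H2-Aa encode chains of the class II molecule, which B cells, dendritic cells and macrophages use to display peptides, and Cd74 encodes its invariant chain. Cd74 was at 31.5 and 36.8 CPM in WT and 93.7 and 112 CPM in Set7KO. With saline it was at 212 and 396 CPM (WT) and 247 and 84.5 CPM (Set7KO), so the WT isoproterenol pair was the lowest group. The log2 difference of Cd74 was 1.59 ± 0.49 (SE), and 1.15 with offsets. H2-Eb1 was at 13.1 and 13.7 CPM in WT against 35.0 and 39.8 CPM in Set7KO. H2-Ab1 was at 10.6 and 12.9 CPM against 31.5 and 32.5 CPM, and H2-Aa at 13 and 15 CPM against 33.4 and 31.4 CPM. These 4 of 16 on the list had higher values with an unadjusted p under 0.05 and none had lower, both before (7.22% and 12.7% of all genes) and after offsets (5.63% and 2.51%). The list median was 0.36, and 0.15 with offsets. That median ran from 0.17 (without WT 1) to 0.64 (without Set7KO 1) with 1 library left out.

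Macrophage and monocyte markers had values on both sides, mainly without offsets. Of 19 tested, 13 were positive without offsets and 18 with them (8372 and 9758 of 17636 genes). Of 19 tested, 6 had higher and 2 had lower values with an unadjusted p below 0.05 (7.22% and 12.7% of all genes), with a median of 0.49. With offsets 4 were higher and none lower (5.63% and 2.51% of all genes), with a median of 0.39. The complement genes C1qa and C1qb were at 44.8 and 42.3 CPM and at 40.3 and 38.2 CPM in WT. In Set7KO they were at 60.6 and 113 CPM and at 54.6 and 110 CPM. The Set7KO libraries were thus unequal, the second being the higher. Folr2, a folate receptor of resident macrophages, was at 6.35 and 5.14 CPM in WT and 8.79 and 21.1 CPM in Set7KO. Mertk, a receptor for the uptake of dying cells, went the other way, at 10.1 and 7.53 CPM in WT and 4.67 and 4.76 CPM in Set7KO. Leaving out 1 library, the median of the macrophage and monocyte list ran from 0.38 (without WT 2) to 0.62 (without WT 1).

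Interferon-stimulated genes were mostly at lower levels in Set7KO, although none passed in edgeR. They are induced by interferons through factors that bind DNA motifs of paired GAAA repeats, and encode antiviral proteins. Short stretches before the annotated start of 3 of them are shown because their promoters hold such a motif. They are RefSeq sequences of GRCm38.p6, written 5′ to 3′ in the direction of transcription, with the motif in capitals: GAAA, 2 bases of any kind, GAAA, which reads TTTC, 2 bases, TTTC where it lies on the other strand.
Ifit1, chr19:34640765-34640884, plus strand: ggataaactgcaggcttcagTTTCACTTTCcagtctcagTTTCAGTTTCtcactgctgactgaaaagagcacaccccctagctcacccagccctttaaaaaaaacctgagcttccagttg
Ifit3b, chr19:34607749-34607868, plus strand: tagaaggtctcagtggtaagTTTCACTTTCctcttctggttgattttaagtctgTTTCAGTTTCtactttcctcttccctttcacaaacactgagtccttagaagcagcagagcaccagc
Tgtp1, chr11:48992247-48992366, minus strand: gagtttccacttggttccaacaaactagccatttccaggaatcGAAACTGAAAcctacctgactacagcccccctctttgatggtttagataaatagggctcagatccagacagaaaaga
Of the 33 genes tested on this list, 24 had a promoter sequence, and 13 of these (54.2%) held the motif on either strand within 250 bases before a start, overlapping matches included. Among all tested genes with a promoter sequence it was 373 of 11335 (3.29%). Within the list the motif was present in 7 of 12 genes that were lower at an unadjusted p under 0.05 and in 6 of the 12 others. Among interferon genes described below, Mndal also held the motif, whereas the promoters of Ifit2 and Ifih1 did not. A match describes these letters only.

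Ifit2, whose protein binds viral RNA, was at 7.53 and 15.7 CPM in WT and 3.10 and 2.93 CPM in Set7KO. The saline levels were 2.91 and 2.59 CPM (WT) and 5.10 and 5.68 CPM (Set7KO), all below both WT isoproterenol libraries. Its log2 difference was -1.94 ± 0.37 (SE), and -1.10 with offsets. Ifit1, another member of that family, was at 2.38 and 4.88 CPM in WT and 1.17 and 0.805 CPM in Set7KO. Ifit3b was at 9.12 and 16.7 CPM in WT and 5.72 and 4.79 CPM in Set7KO. In each of these genes the second WT library was the highest of the 4. Ifih1, the RNA sensor MDA5, was at 4.42 and 6.64 CPM against 2.59 and 1.90 CPM, and its difference of -1.29 was -0.37 with offsets. Interferon-induced GTPases were among the named genes as well. Gbp4 was at 13.0 and 27.2 CPM in WT and 3.16 and 4.98 CPM in Set7KO, and Gbp9 at 14.2 and 21.8 CPM against 4.28 and 6.04 CPM. Tgtp1 was at 9.42 and 20.6 CPM in WT and 3.01 and 3.37 CPM in Set7KO. Gbp4 and Gbp9 overlap on chromosome 5 and these GTPases have close relatives in the genome, so the division of reads among them is uncertain. Mndal, an interferon-inducible gene of the Ifi200 family, was at 4.08 and 5.34 CPM against 1.14 and 1.5 CPM.

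On the whole list, 13 of 33 genes were lower and 1 was higher at an unadjusted p under 0.05 (12.7% and 7.22% of all genes). The median was -0.74. With offsets 8 were lower and none higher (2.51% and 5.63% of all genes), with a median of -0.44. The summed level of the list overlapped between the groups, at 415 and 682 CPM in WT and 413 and 479 CPM in Set7KO. With saline the list median between the genotypes was 0.45, and 0.29 with offsets. The 1 higher gene without offsets was Ifi27, at 33.7 and 46.5 CPM in WT and 70.7 and 77.1 CPM in Set7KO. The pattern leaned on 1 library: the list median was -0.15 without WT 2 and -1.03 without WT 1. It was -0.77 without Set7KO 1 and -0.70 without Set7KO 2. Irf7, a transcription factor of the interferon response, was at 16.2 and 26.5 CPM in WT and 13.8 and 25.6 CPM in Set7KO, with overlapping groups.

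**Figure D3:**
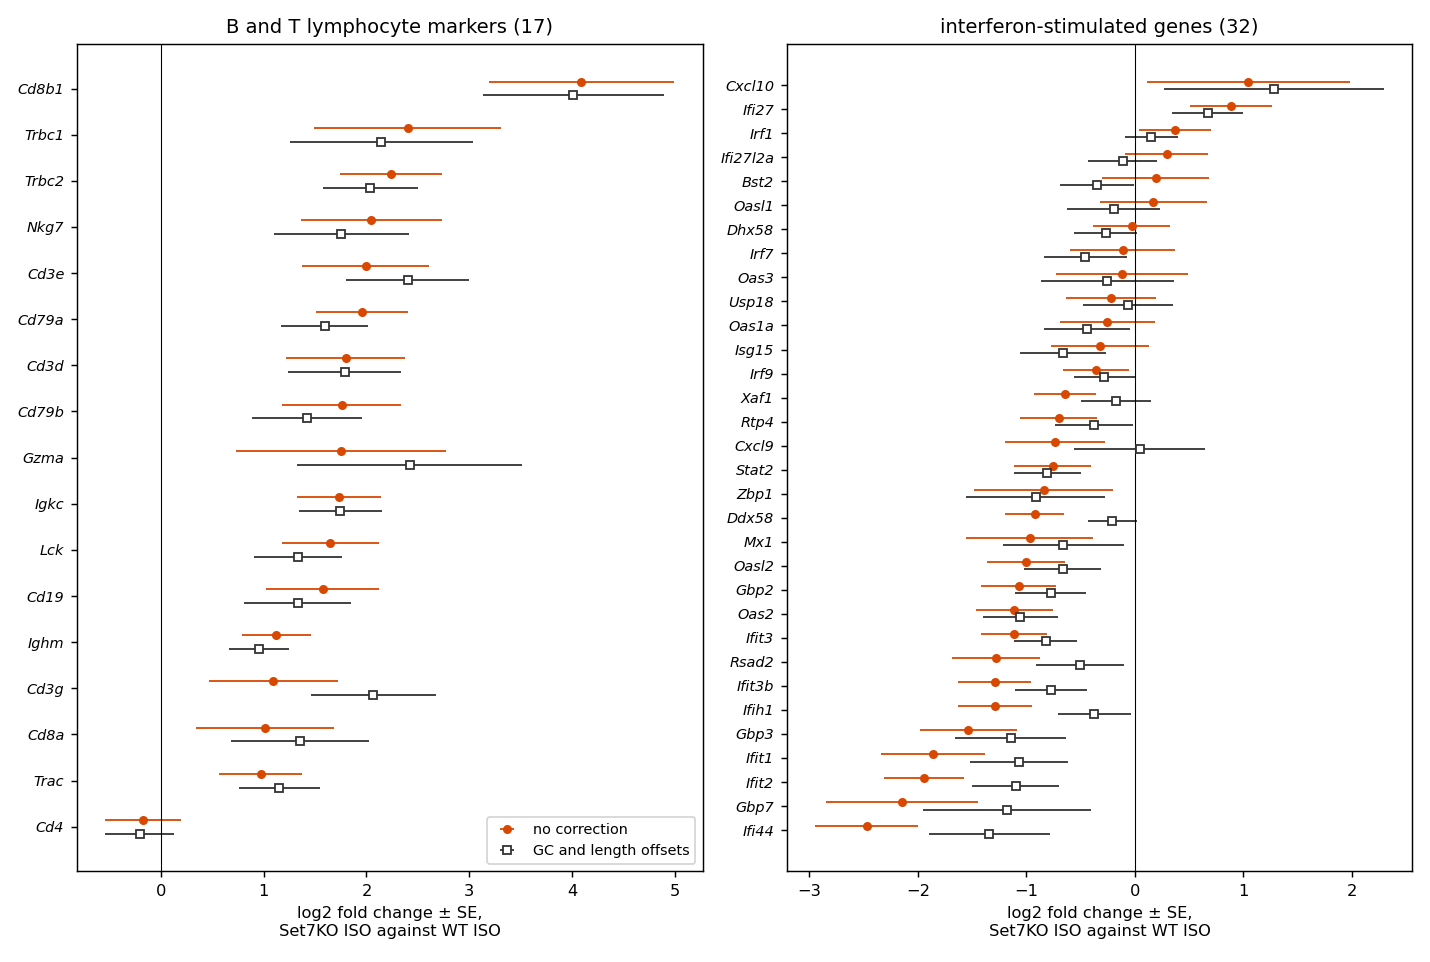
Log2 fold change ± SE between Set7KO and WT after isoproterenol for 17 lymphocyte markers and 32 of the 33 interferon-stimulated genes, without correction (filled) and with GC and length offsets (open). Of the lymphocyte markers, 16 lie above 0 in both fits, and most interferon-stimulated genes lie below 0, closer to 0 with offsets.

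Genes of energy metabolism were mostly higher in Set7KO by less than 2-fold. The adult heart oxidises fatty acids above all, and uses glucose through glycolysis. Of 31 glycolysis and glycogen genes, 13 had higher and 1 had lower values with an unadjusted p below 0.05 (7.22% and 12.7% of all genes), with a median of 0.46. With offsets it was 7 and 1 (5.63% and 2.51% of all genes), with a median of 0.28. Aldoa, the muscle aldolase, was at 2896 and 2917 CPM in WT and 4749 and 4867 CPM in Set7KO. Its log2 difference was 0.73 ± 0.20 (SE), and 0.32 with offsets. Pkm, which makes pyruvate, was at 1406 and 1349 CPM against 2318 and 2331 CPM. The 1 lower gene was Pfkfb2, the heart isoform of the enzyme that makes the phosphofructokinase activator fructose 2,6-bisphosphate. It was at 91.2 and 116 CPM in WT, 35.7 and 35.1 CPM in Set7KO, and between 24.1 and 70.4 CPM with saline. The WT isoproterenol pair was the high one, and the log2 difference was -1.55 ± 0.33 (SE), and -0.92 with offsets. The median of the glycolysis list ran from 0.38 (without WT 1) to 0.53 (without WT 2) with 1 library left out.

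Of 44 nuclear-encoded respiratory chain genes, 18 had higher and 1 had lower values with an unadjusted p below 0.05 (7.22% and 12.7% of all genes), with a median of 0.34. With offsets it was 10 and none (5.63% and 2.51% of all genes), with a median of 0.31. Atp5d, a subunit of ATP synthase, was at 678 and 694 CPM in WT and 1192 and 1570 CPM in Set7KO. Cox7a1, the muscle isoform of a cytochrome oxidase subunit, was at 889 CPM in both WT libraries and 1488 and 2144 CPM in Set7KO. Cox4i1, another subunit of that enzyme, was at 1804 and 2023 CPM against 2918 and 3725 CPM. Cyc1, cytochrome c1, was at 952 and 958 CPM against 1454 and 1707 CPM. The second Set7KO library was the highest of the 4 for each of these genes. The log2 difference was 1.01 ± 0.26 (SE) for Atp5d and 1.03 ± 0.27 (SE) for Cox7a1, and 0.50 and 0.54 with offsets. With 1 library left out, the median ran from 0.30 (without WT 1) to 0.41 (without WT 2). The mitochondrial genome's own 13 protein-coding transcripts had a median of -0.29, which turned to 0.76 with offsets, so no direction can be given for them. The transcript mt-Co1 was at 24161 and 15559 CPM in WT and 13296 and 11117 CPM in Set7KO.

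Of 34 genes of fatty acid uptake and oxidation, 11 had higher and 1 had lower values with an unadjusted p below 0.05 (7.22% and 12.7% of all genes), with a median of 0.29. With offsets 4 were higher and none lower (5.63% and 2.51% of all genes), with a median of 0.20. Ucp2, an uncoupling protein, was at 52.0 and 41.9 CPM in WT and 78.0 and 87.1 CPM in Set7KO. Its saline levels were 130 and 131 CPM (WT) and 80.0 and 88.6 CPM (Set7KO). Plin5, a lipid droplet coat protein, was at 88.7 and 104 CPM against 153 and 164 CPM, with 215 to 285 CPM in saline. Pnpla2, the adipose triglyceride lipase, was at 357 and 421 CPM against 590 and 634 CPM, and Etfb, an electron carrier for the oxidation enzymes, at 559 and 627 CPM against 853 and 1386 CPM. The WT isoproterenol pair was the lowest of the 4 groups for all 4 genes. Medians of the list with 1 library left out ran from 0.24 to 0.34.

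Sarcomere genes, which encode the contractile apparatus, had a median of 0.34 over 18 genes, and 0.21 with offsets. Tnni3, cardiac troponin I, was at 5217 and 5471 CPM in WT and 7113 and 10216 CPM in Set7KO. Actn2, the Z-disc protein alpha-actinin, was at 2755 and 2639 CPM against 3935 and 3919 CPM. Des, the intermediate filament desmin, was at 2784 and 2876 CPM against 4153 and 4005 CPM, and the ventricular light chain Myl3 at 5664 and 5969 CPM against 7778 and 10832 CPM. None of their offset-corrected differences, from 0.24 to 0.31, had an unadjusted p under 0.05. On this list 5 genes had higher and 1 had lower values with an unadjusted p below 0.05 without offsets (7.22% and 12.7% of all genes), and 2 and none with them (5.63% and 2.51% of all genes). The lower gene was Ttn, the giant sarcomere protein titin, at 4734 and 4775 CPM in WT and 2647 and 1202 CPM in Set7KO. Its log2 difference was -1.30 ± 0.55 (SE), and -0.42 with offsets. The median of the 18 genes ran from 0.30 (without WT 2) to 0.47 (without Set7KO 1) with 1 library left out. These defining heart genes were thus abundant in all 4 libraries, as the tissue label says.

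None of 19 hypertrophy and fetal cardiac genes passed. None was higher and 2 were lower with an unadjusted p below 0.05 (7.22% and 12.7% of all genes), Xirp2 and Mef2c, and none was either with offsets. Without offsets 5 did not overlap on the higher side and 5 on the lower (31.8% and 36.3% of all genes), with a median of 0.06. Xirp2, an actin-binding protein gene, was at 261 and 245 CPM in WT and 71.8 and 111 CPM in Set7KO, a log2 difference of -1.46 that was -0.25 with offsets. Nppa, the atrial natriuretic peptide, was at 293 and 569 CPM in WT and 567 and 231 CPM in Set7KO, with overlapping groups. Atrial genes were uneven too, but high in 1 library. Sln, an atrial gene, had 6 and 900 counts in WT and 21 and 0 in Set7KO. The 9 atrial markers other than Nppa summed to 50.03 and 320.5 CPM in WT and to 82.9 and 83.3 CPM in Set7KO, with Bmp10 at 0 in these 4 libraries. The second WT library was thus the high one, whereas Nppa was as high in the first Set7KO library. Adipocyte markers were also uneven in WT, at 0.113 to 11.4 CPM against at most 0.723 CPM in Set7KO, and Lep, Ucp1 and Adrb3 had no counts in these libraries. Their part in any result was not tested. Nppb, the ventricular stress peptide, was at 155 and 140 CPM in WT and 210 and 181 CPM in Set7KO, without overlap, a log2 difference of 0.41 ± 0.68 (SE) and of 0.60 with offsets. Acta1, the skeletal actin re-expressed under load, was at 455 and 117 CPM against 547 and 192 CPM. Ankrd1, a stretch-responsive gene, was at 3024 and 1903 CPM against 2527 and 2147 CPM. The adult and fetal myosin heavy chains Myh6 and Myh7 differed by 0.22 ± 0.19 (SE) and 0.27 ± 0.18 (SE) on the log2 scale, and the sign for Myh6, Acta1 and Ankrd1 flipped with offsets.

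The fibrosis genes gave values on both sides of 0, and none passed. Fibrillar collagens make up scar tissue, and fibroblasts are their main source. Of 20 collagen genes, none had an unadjusted p under 0.05 in either direction. Still, 12 did not overlap on the higher side (31.8% of all genes) and 1 on the lower (36.3%), with a median of 0.42, and 0.25 with offsets. The count at an unadjusted p under 0.05 depended on the saline libraries in the model, as did the count over all genes. In the fit on the 4 isoproterenol libraries 10 collagen genes were higher, and 6 with offsets, with none lower in either. Over all genes, 6108 of 16974 were at that level in either direction in this fit, and 2575 with offsets. In the model of 8 libraries it was 3505 of 17636 genes. The collagen median was 0.42 without Set7KO saline 1 and 0.46 without Set7KO saline 2. Col1a1 was at 155 and 163 CPM in WT and 275 and 253 CPM in Set7KO, with 163 and 253 CPM (WT) and 266 and 65.6 CPM (Set7KO) in saline. Its log2 difference was 0.73 ± 0.54 (SE) and 0.45 with offsets, in the fit that includes the unequal saline pair. Col3a1 was at 348 and 291 CPM in WT and 471 and 364 CPM in Set7KO. Col5a1 was at 83.5 and 78.0 CPM against 125 and 112 CPM, and Col6a2 at 119 and 117 CPM against 191 and 206 CPM. These 4 collagens were therefore higher in both Set7KO libraries than in both WT libraries, within the error of the model.

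Postn, periostin of activated fibroblasts, and Lum, the collagen-binding proteoglycan lumican, pointed the other way. Postn was at 35.5 and 17.3 CPM in WT and 15.8 and 5.96 CPM in Set7KO, with 4.47 to 8.68 CPM in saline. Lum was at 29.2 and 20.1 CPM against 13.6 and 5.78 CPM. Their log2 differences of -1.27 ± 0.55 (SE) and -1.35 ± 0.45 (SE) became -0.15 and -0.40 with offsets, and both lie in the class of lowest GC content. Ogn, the related proteoglycan osteoglycin, was at 4.08 and 3.18 CPM against 0.572 and 1.68 CPM, and -0.58 with offsets. Fbln2, an elastic fibre protein, was at 167 and 133 CPM in WT and 244 and 266 CPM in Set7KO. Of the 32 matricellular, proteoglycan and elastic fibre genes, none was higher and 3 were lower at an unadjusted p under 0.05 (7.22% and 12.7% of all genes), and with offsets 2 were higher and none lower (5.63% and 2.51% of all genes). Their median was 0.30, and 0.21 with offsets, and 15 did not overlap on the higher side and 7 on the lower (31.8% and 36.3% of all genes). With 1 library left out, the median ran from 0.10 (without Set7KO 1) to 0.40 (without Set7KO 2). Of 20 activated fibroblast and myofibroblast markers, a list that holds Postn, 13 had positive values, with a median of 0.32, and 0.21 with offsets. Their summed level was 340 to 385 CPM in WT and 486 to 522 CPM in Set7KO. At an unadjusted p under 0.05, 1 was higher and 2 were lower (7.22% and 12.7% of all genes). The higher one was Wif1, a secreted Wnt inhibitor, at 5.76 and 4.56 CPM in WT and 13.4 and 14 CPM in Set7KO, a log2 difference of 1.41 ± 0.42 (SE), and 1.64 with offsets.

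Tgfb1, the main profibrotic cytokine, was at 33.4 and 36.0 CPM in WT and 52.5 and 60.3 CPM in Set7KO, a log2 difference of 0.70 ± 0.40 (SE), and 0.41 with offsets. Ccn2, one of its targets, was at 55.1 and 66.2 CPM against 49.9 and 50.3 CPM. Fn1, fibronectin, was at 85.3 and 91.0 CPM against 113 and 104 CPM, and elastin (Eln) at 24 and 32.5 CPM against 39.2 and 37.0 CPM. Resident fibroblast markers had a median of 0.21 over 16 genes, and 0.41 with offsets. Of these 3 had an unadjusted p under 0.05 in both fits, on the higher side (7.22% of all genes, and 5.63% with offsets). They were Dpep1, Htra3 and Pi16, the last a marker of adventitial fibroblasts. With 1 library left out, the list median ran from 0.13 (without Set7KO 2) to 0.34 (without Set7KO 1). Pi16 was at 114 and 76.9 CPM in WT and 162 and 195 CPM in Set7KO, a log2 difference of 0.90 ± 0.32 (SE), and 0.63 with offsets. The summed resident fibroblast list was 3314 to 3897 CPM in WT and 4875 to 6639 CPM in Set7KO, and the part of fibroblast content in the collagen values was not tested. E2f1, a cell cycle regulator, was at 1.29 and 0.866 CPM against 1.45 and 1.54 CPM. Of 38 cell cycle genes none had an unadjusted p under 0.05 in either direction, and 1 had with offsets, the replication clamp gene Pcna, whose value was -0.46 without and 0.45 with offsets. Wnt10a had too few counts to be tested.

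Blood transcripts differed too. The globin genes Hba-a1, Hba-a2, Hbb-bs and Hbb-bt, carried by red cells in the tissue, were higher in Set7KO at an unadjusted p under 0.05. These 4 of 8 erythroid markers stood beside 7.22% of all genes, and with offsets 2 of 8 beside 5.63%. Hbb-bs was at 503 and 416 CPM in WT, 1394 and 884 CPM in Set7KO and 1242 to 3665 CPM with saline. The list median was 1.28, and 0.95 with offsets, and summed levels were 1276 to 1545 CPM in WT against 2708 to 4385 CPM in Set7KO. Leaving out 1 library, the list median ran from 0.99 (without Set7KO 1) to 1.56 (without Set7KO 2). The near-identical globin copies share reads. Blood also carries lymphocytes, whose markers were lower in the same WT libraries, and its part in the lymphocyte and MHC class II values was not tested. The 4 Y-linked genes tested were present in all 4 libraries. At an unadjusted p under 0.05, all 4 were lower in Set7KO (12.7% of all genes), and 2 with offsets (2.51%). Their median GC content was 37.1%, and without offsets 43.7% of the genes in the lowest GC class were lower at that level. Ddx3y was at 11.6 and 12.6 CPM in WT and 1.51 and 2.89 CPM in Set7KO, and Kdm5d at 10.9 and 11.9 CPM against 5.21 and 4.35 CPM. Their median of -1.64 was -0.41 with offsets, and their saline values ranged as widely within Set7KO, 4.03 and 14.2 CPM for Ddx3y. Xist had between 0 and 8 counts in these 4 libraries. Over all 39 lists examined, 26 had a positive median difference, 29 with offsets, and 5 changed sign between the 2. No member other than Setd7 passed.

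**Figure D4:**
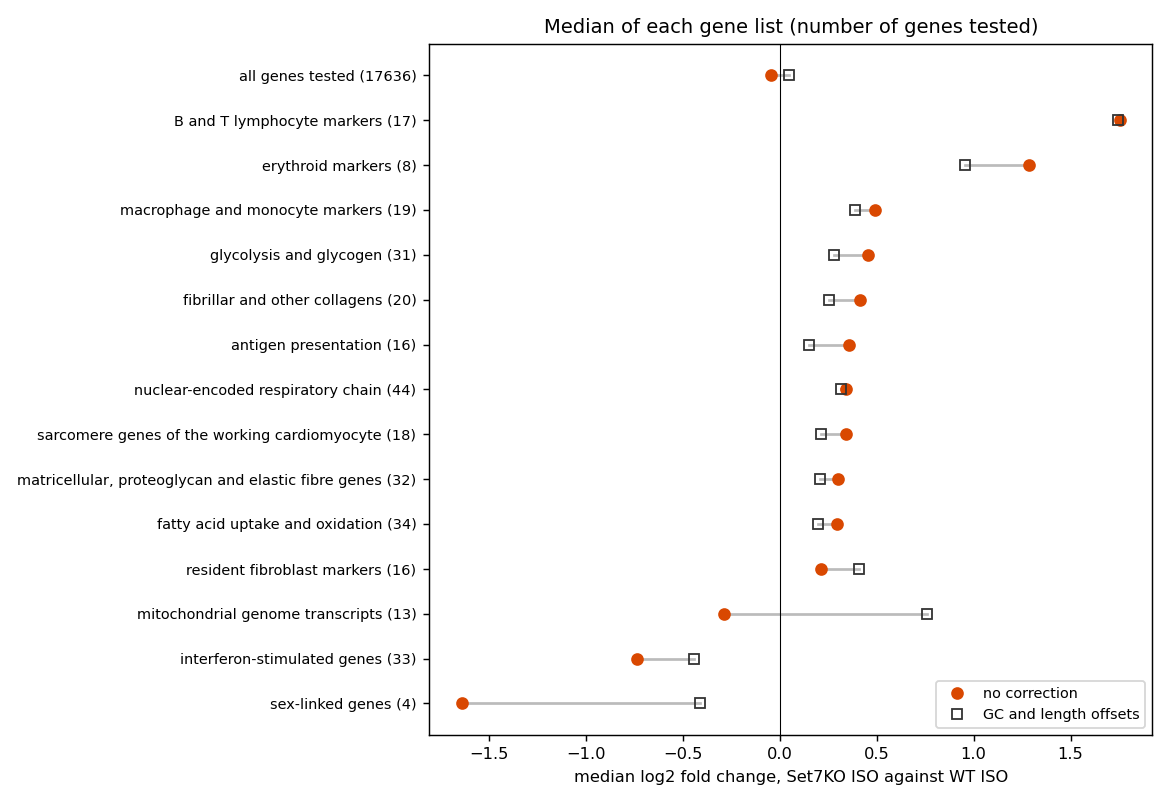
Median log2 fold change between Set7KO and WT after isoproterenol in 14 gene lists and in all genes tested, without correction (filled) and with GC and length offsets (open), with the number of genes tested in parentheses. Lymphocyte markers stay at 1.75, the interferon-stimulated genes move from -0.74 to -0.44, and the mitochondrial transcripts cross 0.

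Histone methyltransferases of the SET and SMYD families, the relatives of Set7, were examined for differences beside the knocked-out gene. Setd7 alone passed of 32. The counts and medians of this list include Setd7 itself, whose drop the knockout fixes. At an unadjusted p under 0.05, 11 were lower, Setd7 among them, and 1 higher (12.7% and 7.22% of all genes), with a median of -0.33. With offsets 3 were lower, again with Setd7 among them, and 2 higher (2.51% and 5.63% of all genes), with a median of -0.02. Kmt2c, a histone H3 methyltransferase of enhancers, was at 40.6 and 48.3 CPM in WT and 17.9 and 11.9 CPM in Set7KO. Its log2 difference of -1.58 was -0.78 with offsets. Kmt2a was at 72.8 and 112 CPM against 56.0 and 38.2 CPM, a difference of -0.97 that was -0.72 with offsets. Smyd2, a methyltransferase of muscle, was at 133 and 134 CPM in WT and 186 and 183 CPM in Set7KO, a difference of 0.47 that was 0.17 with offsets.

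The same genotypes were also compared with saline, in libraries not shared with the comparison above. Setd7 was again the 1 gene called by edgeR (0.00567%), with a log2 difference of -3.09 ± 0.24 (SE) and an adjusted p of 0.0163. At an unadjusted p under 0.05, 1381 genes were higher (7.83%) and 434 lower (2.46%), 10.3% in all. With offsets these shares were 2.79%, 3.12% and 5.91%. DESeq2 called 0.0964% higher and 0.0227% lower, 0.119% in all. Over 12539 genes with a mean of at least 2 CPM, the genotype differences in the 2 treatments had a Pearson r of -0.73 across genes, and -0.43 with offsets. These genes are not independent and share the GC trend of their libraries. An unadjusted p under 0.05 in both treatments was found for 1000 genes with opposite signs and 9 with the same sign. With offsets it was 299 and 10. Of the 23 named genes other than Setd7, 20 had opposite signs in the 2 treatments. The exceptions were Car4, Selplg and Mapt.

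**Figure D5:**
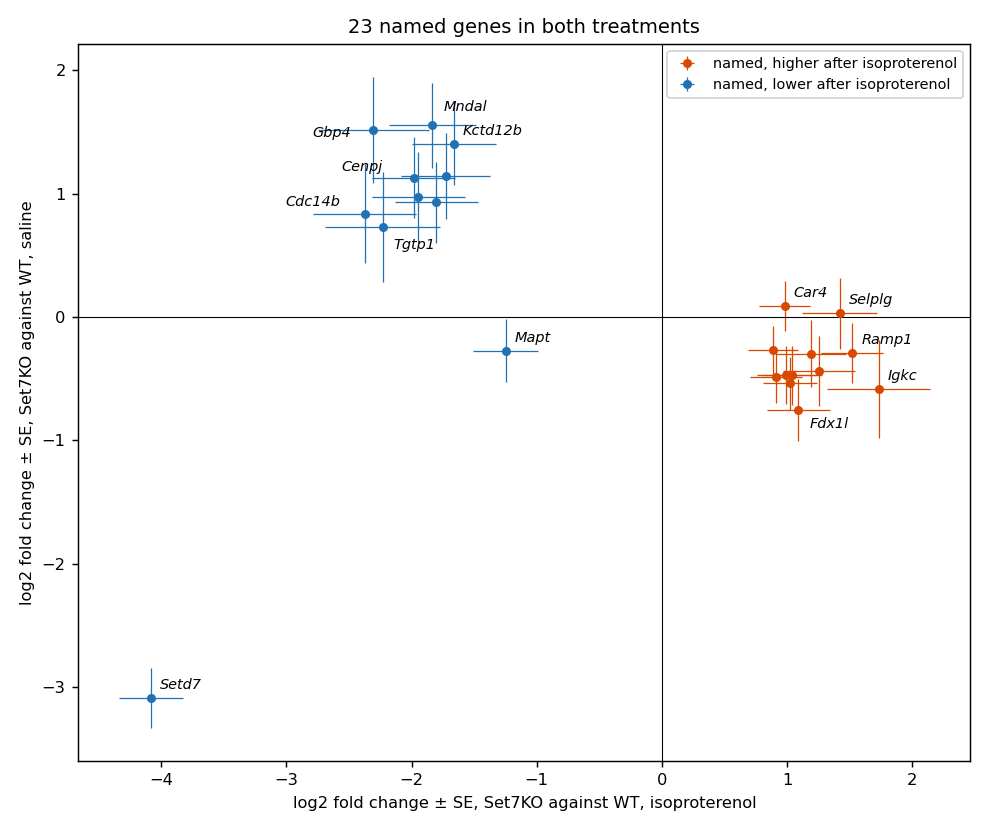
Log2 fold change ± SE between Set7KO and WT after isoproterenol (horizontal) and with saline (vertical) for 23 of the 24 named genes. Setd7 is low in both treatments, whereas most of the others have opposite signs.

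The test of the difference itself, the interaction of genotype and treatment, called no gene in edgeR or in limma-voom and 2321 in DESeq2 (13.2%), 4.66% of all genes with positive and 8.5% with negative values. At an unadjusted p under 0.05 there were 5400 genes (30.6%), and 2347 (13.3%) with offsets, 8.3% positive and 5.01% negative. The lowest adjusted p was 0.0876 in edgeR, and 0.263 with offsets. The call count rose without the first Set7KO saline library, which left the second alone in its group. The GC trend of that second library (-0.93) resembled those of the WT isoproterenol pair (-1.10 and -0.80). Mndal, Clock, Cenpj and Kctd12b were among the 5 genes with the smallest p, all with negative interaction values. Clock, a core circadian transcription factor, was at 7.99 and 8.57 CPM (WT) and 3.52 and 2.60 CPM (Set7KO) with isoproterenol. With saline it was at 2.43 and 2.29 CPM (WT) and 6.34 and 11.5 CPM (Set7KO), the reverse order. The interaction value was -3.36 for Clock and -3.39 for Mndal. For Setd7 it was -0.99 ± 0.32 (SE) and did not pass (adjusted p of 0.110, edgeR), and -0.09 with offsets.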

How the data were processed

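The authors deposited whole-number counts per gene, 1 column per library, for 55487 identifiers, 29066 of them with a count. Per the labels' protocols, total RNA was made into stranded mRNA libraries and sequenced on a NextSeq 500. HISAT2, HISAT, StringTie and edgeR appear in the submitters' processing notes with the build GRCm38. No version or setting is given in the sources used here. GENCODE M21 gave symbols and coordinates, and its transcripts GC content and length.

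From the deposited counts, edgeR 4.0.16 (R 4.3.3) fitted 4 group means to 8 libraries with TMM and filterByExpr, leaving 17636 genes. Residual degrees of freedom were 4 and prior ones 4.36, and biological variation (BCV) was 28.4%. F-tests were two-sided, Benjamini-Hochberg adjusted over all genes, with a threshold of 0.05. SEs derive from F. Offsets used natural splines of 5 degrees of freedom. Depth limits weakly expressed genes: 3 counts are 0.0681 to 0.110 CPM in the isoproterenol libraries. The fit was tested on simulated data.

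The genes, 39 lists and tests were chosen with earlier results of these data known. Named genes were Setd7; the 12 smallest p-values per direction among genes with a mean of at least 2 CPM, no overlap and the same sign with offsets; up to 4 per list at 1 CPM or more; and 16 cardiac, matrix and cell cycle genes. Gene models and ribosomal protein genes were left out. Others (Trbc2, Lck, Cd4, Irf7, Ifi27, Pkm, Kmt2c, Kmt2a, Smyd2, Rab33b, Naa15, Ttn) were chosen with their values in view. Some genes that the rules or lists hold are not reported here, though the counts include them. The alternatives comprised normalization, filters, DESeq2 1.42.0, limma-voom 3.58.1, other sets of libraries and leaving out each library.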

Additional observations from a re-analysis of the deposited data

How the results depend on the processing

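The alternatives covered 93 results: isoproterenol differences of named genes, and interaction values of the genes with the smallest interaction p. Of their 1840 values under alternatives, 1693 kept their sign and their side of the threshold. Another 109 passed the threshold that they had missed (46 with the 4 isoproterenol libraries alone, 44 with DESeq2). Setd7 after isoproterenol missed it in 2. The count of genes called after isoproterenol was 3 with no filter on low counts (Setd7, En2 and Olfr482), 297 with DESeq2, 1303 with the 2 groups alone, 2 with these and offsets (Setd7 and Fxyd3), and 119 with DESeq2 and offsets, 13 of them shared with DESeq2 without offsets. Leaving out each library it ran from 0 to 2. It was 0 without Set7KO 1, and 2 without Set7KO 2 (Gm10774 and Usp50, each set apart by Set7KO 1 alone). The log2 value of Setd7 ran from -4.23 to -3.91. The interaction count was 1686 with no filter, 2321 with DESeq2, 370 with DESeq2 and offsets, and 0 to 5778 with a library left out. The saline count was 19, 21 and 14 in the same order, 0 with the 2 groups alone, without or with offsets, and 0 to 1030 with a library left out (1030 without Set7KO saline 1). A group left with 1 library was assumed to vary like the others. The highest interaction and saline counts came from such a fit, in which Set7KO saline 2 was the only Set7KO saline library. The causes were not tested.

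Signs turned for these genes. With offsets, Myh6 was -0.013, Acta1 -0.067, Ankrd1 0.35, mt-Nd5 0.23, mt-Co2 0.33, mt-Co1 0.34, mt-Atp8 0.60 and Uty 0.0046. With the 2 groups alone and offsets they were, in that order, -0.023, -0.085, 0.34, 0.22, 0.32, 0.34, 0.55 and 0.0021. Without both Set7KO saline libraries and with offsets, Myh6 was -0.019, Acta1 -0.079, Ankrd1 0.34, mt-Nd5 0.22, mt-Co2 0.31, mt-Co1 0.33 and mt-Atp8 0.55. With DESeq2 and offsets, Acta1 was -0.027, Ankrd1 0.40, mt-Nd5 0.28, mt-Co2 0.38, mt-Co1 0.39, mt-Atp8 0.65 and Uty 0.058. Leaving out 1 library, Nppa ran from -0.86 to 0.45 (highest without WT 2, and 0.40 without Set7KO 2), Acta1 from -0.54 (without Set7KO 1) to 1.66, with -0.30 without WT 2, and Ankrd1 from -0.37 to 0.30 (without WT 1), with 0.04 without Set7KO 2. The offsets combined with DESeq2, or with leaving out both Set7KO saline libraries, were chosen after seeing the data.

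No paired analysis was possible because the labels carry no replicate numbers that the groups share.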

Other observations

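Some genes differed between the genotypes in the same direction with isoproterenol and with saline. They were chosen after their values were seen, and 9 had an unadjusted p under 0.05 in both treatments with the same sign. En2, a homeobox transcription factor gene best known from the developing midbrain and cerebellum, had 0 counts in all 4 WT libraries. It had 29 and 18 counts in the Set7KO libraries with isoproterenol and 18 and 24 with saline. Across all identifiers with a count, En2 was the 1 gene with no count in one genotype and more than 3 counts in every library of the other. Its mean CPM in Set7KO with isoproterenol was at least 9.90-fold higher than the level of 3 counts per library in WT. En2 lies on chromosome 5, at 28165694 to 28172166, on another chromosome than Setd7. Cib3, a calcium and integrin binding protein gene, was at 0.431 and 0.606 CPM in WT with isoproterenol and had no count in either Set7KO library. With saline it was at 0.784 and 0.597 CPM (WT) and 0.163 and 0.319 CPM (Set7KO). Slpi, a secreted leukocyte protease inhibitor, was at 0.272 and 0.173 CPM in WT and 0.783 and 0.805 CPM in Set7KO with isoproterenol, and at 0.187 and 0.464 CPM against 0.585 and 2.05 CPM with saline.

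Fxyd3, a regulator of the sodium pump, passed in the fit on the 4 isoproterenol libraries with offsets (edgeR, adjusted p of 0.0326). It had 4 and 3 counts in WT and 99 and 85 in Set7KO with isoproterenol. With saline it had 45 and 0 counts (WT) and 8 and 19 (Set7KO), so its saline values overlapped between genotypes. Usp50 had 1111 and 956 counts in WT and 0 and 1533 in Set7KO with isoproterenol, and between 1245 and 1583 in saline, so 1 library of the 8 lacked it.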
